A study of Mus musculus with 15 samples.

Results

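The E2f transcription factors and the Rb pocket proteins were followed in mouse cerebellar granule neuron precursors (GNPs, the dividing cells that become cerebellar granule neurons) at 4 ages and in cells of medulloblastoma, a tumour of the cerebellum. The genes were chosen by name: E2f1 to E2f8, Rb1 and Rbl1, 10 of the 21889 genes in the gene table. All 10 were found, and all 10 passed the filter on low counts that left 15259 genes for testing. There were 15 RNA-seq libraries, 3 per group. The E15.5 precursors carried Math1-GFP, a label that the older groups lack, and the precursors at P1, P7 and P14 were wild type. The tumour group (MB) came from Ptch1 heterozygous mice and has no age label. Every group was cerebellum, with cells purified on Percoll, and poly(A) RNA was sequenced. Nothing in the labels says that the replicates came from separate animals, so p-values measure only the spread between these libraries, which may be technical. E15.5 and P1 differ in age and in genotype label at once, and these cannot be told apart.

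E2f proteins bind DNA with a DP partner (Tfdp1 or Tfdp2) at the promoters of genes for DNA replication and cell division. Pocket proteins (Rb1, Rbl1 and Rbl2) hold E2f factors back until cyclin-dependent kinases phosphorylate them, and the balance between the activators E2f1 to E2f3 and the repressors sets entry into S phase. In GNPs, Sonic hedgehog signalling through Ptch1 drives this division in the external granule layer, and loss of Ptch1 keeps it going in medulloblastoma.

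Libraries held 12597472 to 43443132 counts in genes. The 7 GNP marker genes were all measured, and their summed level lay between 2277 and 3224 CPM (counts scaled to library size with TMM, the trimmed mean of M-values) at E15.5, 2740.3 and 3226 at P1, 3834 and 4202 at P7, 3292 and 3599 at P14, and 3189 and 4808 in MB. P1 replicate 3 stood apart at its age, with 3036 CPM over 6 granule neuron markers against 1199 and 1237 CPM in the other 2, and 3299 CPM over 6 oligodendrocyte markers against 214 and 586 CPM. The P1 libraries also differed in the summed choroid plexus markers, at 295, 10293 and 3838 CPM in replicates 1 to 3. The libraries also fell into 2 sets by how the gene table had been counted: the share of reads over Tsnax transcripts that it kept was 0% to 0.273% in 6 libraries (E15.5 replicates 1 and 3, every P7 library and MB replicate 1) and 92.4% to 94.8% in the other 9. For the 10 E2f and Rb genes the gene count was 91.3% to 100.8% of the transcript count, and for each gene the values of both sets overlapped.

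Promoters are shown first, because several of these genes are known as targets of E2f factors themselves. RefSeq windows of 300 bases (250 before the start to 50 after it, GRCm38.p6) were found for 7 of the 10 genes, 9 windows in all, and not for E2f4, E2f5 and Rb1. They were searched on both strands for 4 words of an E2f site (TTTCCCGC, TTTGGCGC, TTTCGCGC and TTTGCCGC) and for TTTGAA, the core of a cell cycle homology region (CHR). An E2f word was present in 1 window each of 4 of the 7 genes, E2f2, E2f3, E2f7 and Rbl1. Over all 32851 promoter windows the share was 2.26%, counted by window and not by gene. The CHR word was present in 1 window each of E2f2, E2f3 and E2f8, against 17.9% of all windows. That of E2f2 lay in its other window (chr4:136180532-136180831, not shown), which starts inside the gene. Bases before that start read as E2f2 coding sequence. Windows of E2f1 and E2f6 held neither. The E2f1 window starts inside the gene, because bases before its start read as E2f1 coding sequence. The bases before the first exon of E2f1 were therefore not searched. The 9 windows were 54.7% to 78.7% G and C, above the median of 52.7% over all windows. A match describes letters only, and binding was not measured here. The following 5 windows, 1 for each gene in which a word was found, are shown for the place of that word. They lie at chr4:136172024-136172323 (plus strand, E2f2), chr13:29986014-29986313 (minus, E2f3), chr10:110745189-110745488 (plus, E2f7), chr7:48881547-48881846 (minus, E2f8) and chr2:157204485-157204784 (minus, Rbl1), and the capitals mark the words found.
E2f2: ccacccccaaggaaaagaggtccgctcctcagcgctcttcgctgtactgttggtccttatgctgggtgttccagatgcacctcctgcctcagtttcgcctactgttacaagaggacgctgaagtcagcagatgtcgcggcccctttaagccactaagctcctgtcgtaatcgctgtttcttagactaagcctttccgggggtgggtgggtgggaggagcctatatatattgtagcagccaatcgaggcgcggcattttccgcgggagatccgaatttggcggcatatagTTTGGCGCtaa
E2f3: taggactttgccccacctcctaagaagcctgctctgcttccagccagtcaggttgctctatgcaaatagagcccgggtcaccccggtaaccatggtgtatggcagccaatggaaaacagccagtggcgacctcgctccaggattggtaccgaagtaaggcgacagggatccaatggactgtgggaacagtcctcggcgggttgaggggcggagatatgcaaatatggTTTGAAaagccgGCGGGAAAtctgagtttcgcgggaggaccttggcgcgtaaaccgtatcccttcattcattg
E2f7: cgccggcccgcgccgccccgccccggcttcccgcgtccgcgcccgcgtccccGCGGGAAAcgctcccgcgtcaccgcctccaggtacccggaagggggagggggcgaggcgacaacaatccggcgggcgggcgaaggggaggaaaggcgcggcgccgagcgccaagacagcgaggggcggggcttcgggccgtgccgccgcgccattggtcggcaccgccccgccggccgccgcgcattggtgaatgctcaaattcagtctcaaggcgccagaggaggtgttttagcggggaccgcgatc
E2f8: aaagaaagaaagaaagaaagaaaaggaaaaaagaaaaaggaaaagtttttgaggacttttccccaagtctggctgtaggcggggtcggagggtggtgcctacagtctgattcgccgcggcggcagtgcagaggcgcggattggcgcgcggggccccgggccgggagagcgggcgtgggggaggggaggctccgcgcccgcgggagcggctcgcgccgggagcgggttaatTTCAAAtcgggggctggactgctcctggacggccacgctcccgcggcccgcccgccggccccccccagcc
Rbl1: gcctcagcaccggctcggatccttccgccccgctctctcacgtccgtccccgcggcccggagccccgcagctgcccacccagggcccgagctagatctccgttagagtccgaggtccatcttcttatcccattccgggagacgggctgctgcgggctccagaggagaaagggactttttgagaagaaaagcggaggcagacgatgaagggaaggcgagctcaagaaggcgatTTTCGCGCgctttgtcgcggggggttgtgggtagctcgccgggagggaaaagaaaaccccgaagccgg

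In E2f2 the E2f word lay at bases 40 to 47 after the start. In E2f3 it lay 11 to 4 bases before the start, on the opposite strand, with the CHR word 23 to 18 bases before it. The E2f word of E2f7 lay farther away, 198 to 191 bases before the start and on the opposite strand. In Rbl1 it lay 18 to 11 bases before the start, and the CHR word of E2f8 lay 20 to 15 bases before its start. No 2 of the words overlapped.

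Levels were compared with edgeR's quasi-likelihood test over all 15 libraries, and a gene was called at an FDR (Benjamini-Hochberg adjusted p over 15259 genes) under 0.05. The P1, P7, P14 and MB libraries each enter several contrasts, so the values are set side by side and are not independent. In any of these bulk samples, fewer cells of a type and less RNA per cell cannot be told apart.

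From E15.5 to P1, 6 of the 10 genes rose (E2f2, E2f3, E2f5, E2f7, E2f8 and Rbl1) and E2f4 fell, while E2f1, E2f6 and Rb1 were not called. Of all genes tested, 46.3% were called, 25.4% higher and 20.9% lower. The median log2 change of the 10 genes was 0.59, against 0.03 over all genes. Markers of other cells moved in the same contrast: all 6 astroglia markers (summed level 122 to 356 CPM at E15.5, 2419 to 3656 at P1), all 6 oligodendrocyte markers (32.1 to 42.8 against 214 to 3299) and all 6 endothelial markers (11.2 to 30.5 against 376 to 567) rose. All 6 of the pericyte and fibroblast markers, all 4 of the choroid plexus, 5 of 6 of the microglia and macrophages, and the 1 erythroid marker tested rose as well. 5 of 6 GABAergic interneuron markers fell, and no single marker of these lists was at 0 throughout E15.5. Of the granule neuron markers, Gabra6 was at 0 in all E15.5 libraries. The part of these cells in the E2f and Rb values was not tested. Inside 1 counting set, which leaves E15.5 replicate 2 alone at its age and assumes that it varies like the other groups, only E2f4 (-0.77) and E2f5 (0.80) were called.

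From P1 to P7 none of the 10 genes was called by edgeR, where 3.15% of all genes were (1.40% higher and 1.74% lower). An unadjusted p under 0.05 was reached by E2f2, E2f4 and E2f8, all with higher fitted levels at P7, and DESeq2 called E2f4 alone (0.57, FDR 0.0349). Every P7 library belongs to 1 counting set, and neither P1 nor P14 has a library in it, so in this step and the next the set and the age cannot be told apart.

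From P7 to P14, E2f2, E2f7, E2f8 and Rbl1 fell, and the other 6 genes were not called although each had a negative fitted change. Of all genes, 10.3% were called, 4.51% lower and 5.81% higher. The median change of the 10 genes was -0.45, against -0.005 over all genes. None of the 4 calls was made without P7 replicate 2 or without P14 replicate 2. A term for the counting set rests on E15.5 and MB, the only groups with libraries in both sets. It assumes the same set effect at P7 and P14, so it cannot separate set from age here. With that term E2f2 (-1.17), E2f7 (-1.47) and E2f8 (-1.48) stayed called and Rbl1 (-0.80) did not. Beside these falls, 2 of 7 GNP markers fell (median of the 7, -0.54), while 3 of 6 granule neuron markers and 2 of 6 oligodendrocyte markers rose, with summed oligodendrocyte levels of 658 to 1471 CPM at P7 and 5236 to 5729 at P14. Choroid plexus markers were at 10.2 to 1955 CPM at P7 and 5071 to 8445 at P14 (none of 4 called). Summed endothelial levels were 285 to 348 CPM and 691 to 725 CPM (1 of 6 called higher). The part of these cells was not tested. Between P1 and P14 directly, E2f6, E2f7 and Rbl1 fell, against 8.94% of all genes called, 5.31% lower and 3.63% higher. In this contrast 2 of 7 GNP markers fell and 1 of 6 granule neuron markers rose. None of the 6 oligodendrocyte markers was called, although all 6 had positive fitted changes (median 2.08). Their summed levels were 214, 586 and 3299 CPM in P1 replicates 1 to 3 and 5236 to 5729 CPM at P14. The contrast of P1 and P14 lies inside 1 counting set. Without P1 replicate 3, E2f5 was called as well (-0.70). No call remained when P1 replicate 1 or 2 or P14 replicate 2 or 3 was left out, and Rbl1 was the only one when P14 replicate 1 was.

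In MB, E2f6 and Rbl1 were higher than at P7, 2 of 10 genes, where 34.5% of all genes were called, 13.7% higher and 20.7% lower. Against P14, 9 of the 10 were higher and E2f5 alone was not called, where 22.9% of all genes were called higher and 27.2% lower. Median changes of the 10 genes were 0.33 and 0.91, against 0.02 and 0.01 over all genes. In MB the summed levels were 110 to 256 CPM for the oligodendrocyte markers, 17.6 to 31.5 for the endothelial, 766 to 1309 for the astroglia and 969 to 1490 for the granule neuron markers. At P14 the astroglia summed to 3218 to 4199 CPM and the granule neuron markers to 3740.2 to 4498 CPM. Against P14, 5 of 6 oligodendrocyte, 6 of 6 endothelial, 5 of 6 astroglia, 6 of 6 granule neuron, 5 of 6 Purkinje and 6 of 6 interneuron markers were lower, while 4 of 6 markers of microglia and macrophages were higher. All 6 pericyte and fibroblast markers, all 4 choroid plexus markers and the 1 erythroid marker tested were lower too, and no single marker was at 0 throughout MB. Against P7, 5 of 6 oligodendrocyte, 6 of 6 endothelial, 6 of 6 pericyte and fibroblast, 5 of 6 astroglia, 5 of 6 Purkinje, 5 of 6 interneuron, 3 of 6 granule neuron and 1 of 4 choroid plexus markers and the 1 erythroid marker were lower. Of the 7 GNP markers 4 were higher than at P7 and 1, Pax6, was lower (mean 191 CPM in MB and 624 at P7), and 4 of 6 markers of microglia and macrophages were higher. The part of these cells was not tested. With MB replicates 2 and 3 alone, inside 1 counting set, 8 genes were called against P14, and Rb1 (0.35, FDR 0.0841) was not. Over the 4 normal ages 7 genes differed (E2f2, E2f3, E2f4, E2f6, E2f7, E2f8 and Rbl1), against 55.7% of all genes, and E2f1 (FDR 0.619), E2f5 (0.0767) and Rb1 (0.248) were not called.

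**Figure D1:**
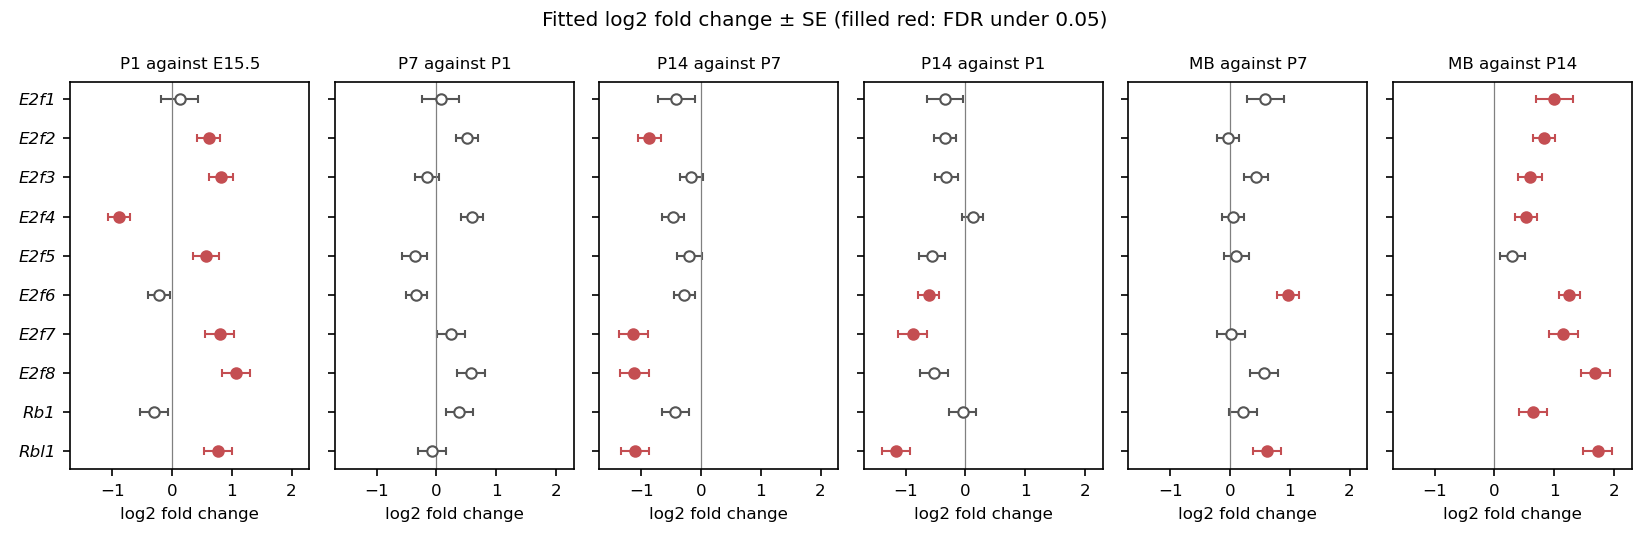
Fitted log2 fold change (x axis) with its SE for each of the 10 genes (rows) in the 6 contrasts (panels). Filled red points are calls at an FDR under 0.05: 7 for P1 against E15.5, 0 for P7 against P1, 4 for P14 against P7, 3 for P14 against P1, 2 for MB against P7 and 9 for MB against P14.

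The activators came first. E2f1, which turns on S phase genes when it is freed from Rb (ENSMUSG00000027490, chromosome 2, 154385370 to 154395456 in mm9, minus strand), was at 118, 105 and 91.4 CPM in E15.5 replicates 1 to 3, at 147, 112 and 84.5 CPM at P1, and at 101, 126 and 133 CPM at P7. It was at 83.2, 90.0 and 97.8 CPM at P14 and at 82.9, 196 and 264 CPM in MB. The normal groups all overlapped except P7 and P14, and the tumours spanned the widest range: MB replicate 1 was the lowest of all 15 libraries and the other 2 tumours were the highest. E2f1 was 2.00-fold higher in MB than at P14 (log2 1.00, SE 0.31, FDR 0.0142). That call was lost without MB replicate 3 (0.63, FDR 0.0972), without P14 replicate 1 (0.95, FDR 0.0502) and when these 2 groups were fitted by themselves (1.00, FDR 0.0570). Against P7 the change was 0.59 (FDR 0.157). It was called without MB replicate 1 (0.94, FDR 0.00345) and was -0.49 for MB replicate 1 alone against P7. A second transcript model, ENSMUST00000109704, overlaps E2f1 on the same strand, so its level is uncertain to that extent.

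E2f2, the second activator (ENSMUSG00000018983, chromosome 4, 135728309 to 135751972, plus strand), was at 30.8, 32.7 and 24.6 CPM at E15.5, at 55.1, 44.2 and 35.4 CPM at P1, and at 59.2, 65.9 and 67.1 CPM at P7. It was at 35.4, 32.7 and 37.8 CPM at P14 and at 51.8, 69.8 and 65.6 CPM in MB. All 3 libraries lay higher at each step to P7, with no overlap between ages, and every P14 library lay below every P7 and MB library. The rise from E15.5 to P1 was 1.53-fold (log2 0.61, SE 0.19, FDR 0.0149). That call was lost when E15.5 replicate 3 (0.45) or P1 replicate 1 (0.44) was left out, and with the counting set term (0.41). The fall from P7 to P14 was 1.82-fold (-0.86, SE 0.19, FDR 0.0142), and was not called without P7 replicate 2 (-0.84), P14 replicate 1 (-0.86) or P14 replicate 2 (-0.81). MB stood 1.77-fold above P14 (0.82, SE 0.19, FDR 0.00192) while the change against P7 was -0.04 (FDR 0.903).

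E2f3, the third activator and one that dividing cells need (ENSMUSG00000016477, chromosome 13, 29998444 to 30077537, minus strand), was at 47.9, 57.2 and 31.0 CPM at E15.5, at 91.6, 76.0 and 71.5 CPM at P1, and at 64.9, 74.9 and 74.0 CPM at P7. At P14 it was at 70.1, 57.1 and 64.4 CPM, and in MB at 103, 88.5 and 97.3 CPM. E15.5 lay below P1 without overlap, P1 and P7 overlapped as did P7 and P14, and the tumours lay above every P7 and P14 library. The rise to P1 was 1.76-fold (log2 0.82, SE 0.20, FDR 0.00375) and was 0.47 (FDR 0.0660) inside 1 counting set. After P1 no step between ages was called. MB was 1.51-fold above P14 (0.59, SE 0.20, FDR 0.0210), a call lost without P14 replicate 2 (0.52) or 3 (0.60), and the change against P7 was 0.43 (FDR 0.104).

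E2f4 acts mostly as a repressor with Rbl1 and Rbl2, and it was the only 1 of the 10 genes called lower at P1 than at E15.5. Fitted changes of E2f6 (-0.21) and Rb1 (-0.30) in that contrast were also negative but were not called. E2f4 (ENSMUSG00000014859, chromosome 8, 107821563 to 107829269, plus strand) was at 90.9, 80.9 and 90.7 CPM at E15.5 and at 48.8, 50.1 and 43.6 CPM at P1. It was at 56.0, 85.2 and 73.5 CPM at P7, at 50, 50.8 and 54.0 CPM at P14, and at 58.2, 89.0 and 75.6 CPM in MB. E15.5 and P1 did not overlap, nor did P7 and either neighbouring age, while P1 overlapped P14 and P7 overlapped MB. The fall to P1 was 1.84-fold (log2 -0.88, SE 0.18, FDR 0.00125), and it was called in every alternative run, over -1.001 to -0.77. The change from P1 to P7 was 0.59 (FDR 0.0862) and that from P7 to P14 was -0.47 (FDR 0.106). MB exceeded P14 by 1.44-fold (0.53, SE 0.18, FDR 0.0254). This call was lost without MB replicate 2 (0.38) or 3 (0.51) and without P14 replicate 1 (0.50), 2 (0.51) or 3 (0.56).

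E2f5, the close relative of E2f4 (ENSMUSG00000027552, chromosome 3, 14578671 to 14606308, plus strand), was at 22.0, 21.2 and 31.7 CPM at E15.5, at 40.7, 41.1 and 29.8 CPM at P1, and at 31.3, 33.0 and 22.2 CPM at P7. At P14 it was at 22.9, 28.4 and 24.3 CPM and in MB at 31.5, 30.6 and 31.0 CPM. P14 lay below every P1 and MB library, and all other groups overlapped. The rise to P1 was 1.49-fold (log2 0.57, SE 0.21, FDR 0.0374) with overlapping groups. It was not called when E15.5 replicate 1 (0.48) or 2 (0.46) or P1 replicate 1 (0.50) or 2 (0.49) was left out, without the filter on low counts (0.56), with only these 2 groups fitted (0.60) or with a replicate block (0.56). No other contrast of E2f5 was called, with changes of -0.56 for P14 against P1 (FDR 0.101), 0.11 for MB against P7 (FDR 0.741) and 0.30 for MB against P14 (FDR 0.249).

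E2f6 represses genes without binding pocket proteins, through a Polycomb complex. E2f6 (ENSMUSG00000057469, chromosome 12, 16817771 to 16833549, plus strand) was at 47.4, 42.2 and 54.99 CPM at E15.5, at 45.3, 45.5 and 33.9 CPM at P1, and at 30.8, 37.3 and 30.6 CPM at P7. It was at 28.2, 26.2 and 26.9 CPM at P14 and at 76.4, 61.6 and 55.6 CPM in MB. Neighbouring ages overlapped up to P7, P14 lay below every other library, and MB lay above them all. The fall from P1 to P14 was 1.53-fold (log2 -0.62, SE 0.18, FDR 0.0449). That call was lost when P1 replicate 1 (-0.55) or 2 (-0.55) or P14 replicate 1 (-0.65), 2 (-0.59) or 3 (-0.61) was left out, without the filter on low counts (-0.61) and with a replicate block (-0.61). In MB E2f6 was 1.96-fold above P7 (0.97, SE 0.18, FDR 6.10e-04) and 2.38-fold above P14 (1.25, SE 0.18, FDR 4.51e-05). Both differences were called in every alternative run, over 0.83 to 1.26 and 1.11 to 1.35.

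The atypical factors E2f7 and E2f8 bind DNA without a DP partner and shut S phase genes down again late in the cycle. E2f7 (ENSMUSG00000020185, chromosome 10, 110182524 to 110224440, plus strand) was at 37.2, 45.2 and 23.2 CPM at E15.5, at 77.2, 57.1 and 48.8 CPM at P1, and at 62.2, 69.5 and 85.4 CPM at P7. At P14 it was at 36.0, 27.4 and 35.8 CPM and in MB at 70.1, 74.9 and 75.5 CPM. P14 returned to the range of E15.5, and every P1, P7 and MB library lay above both. E2f7 rose 1.74-fold to P1 (log2 0.80, SE 0.24, FDR 0.0126). That call was lost without E15.5 replicate 3 (0.52) or P1 replicate 1 (0.59), and with the counting set term (0.59). E2f7 fell 2.19-fold from P7 to P14 (-1.13, SE 0.24, FDR 0.0126), not called without P7 replicate 2 (-1.16) or P14 replicate 2 (-1.01). From P1 to P14 it fell 1.85-fold (-0.88, SE 0.24, FDR 0.0338), not called without P1 replicate 1 (-0.68) or 2 (-0.93) or P14 replicate 1 (-0.95), 2 (-0.76) or 3 (-0.94). MB was 2.22-fold above P14 (1.15, SE 0.24, FDR 8.96e-04) and at 0.02 against P7 (FDR 0.956).

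E2f8 (ENSMUSG00000046179, chromosome 7, 56121799 to 56136411 for the transcript with the higher count, minus strand) had the largest ratio of the highest to the lowest group mean among the E2f genes. It was at 19.98, 26.1 and 16.0 CPM at E15.5, at 53.1, 40.5 and 36.1 CPM at P1, and at 45.5, 74.3 and 74.0 CPM at P7. It was at 32.2, 23.9 and 33.6 CPM at P14 and at 86.8, 105 and 97.0 CPM in MB. The tumours lay above all normal libraries, P1 and P7 overlapped, and P14 overlapped E15.5 alone. E2f8 rose 2.10-fold to P1 (log2 1.07, SE 0.24, FDR 0.00208), with 0.72 (FDR 0.0564) inside 1 counting set. It fell 2.16-fold from P7 to P14 (-1.11, SE 0.24, FDR 0.0135), not called without P7 replicate 2 (-1.0) or P14 replicate 2 (-0.97). MB was 3.21-fold above P14 (1.68, SE 0.24, FDR 4.08e-05), a difference called in every alternative run (1.54 to 1.81). The change against P7 was 0.57 (FDR 0.0718), and DESeq2 called it (0.60, FDR 0.0473).

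Of the pocket protein genes, Rbl1 was called in several contrasts between ages and Rb1 in none. Rb1, the retinoblastoma protein that holds the activators (ENSMUSG00000022105, chromosome 14, 73595309 to 73725629, minus strand), was at 163, 181 and 150.5 CPM at E15.5, at 139, 111 and 151 CPM at P1, and at 185, 204 and 134 CPM at P7. At P14 it was at 145, 118 and 125 CPM and in MB at 284, 176 and 148 CPM. All neighbouring ages overlapped, and no contrast between ages was called. Rb1 was 1.57-fold higher in MB than at P14 (log2 0.65, SE 0.23, FDR 0.0284). This rested on MB replicate 1: without it the change was 0.33 (FDR 0.178). The summed markers of microglia and macrophages were at 477 CPM in that library, against 166 and 140 CPM in the other tumours and 45.5 to 156 CPM at P7 and P14, and their part in its Rb1 and Rbl1 levels was not tested. The call was also lost without P14 replicate 2 (0.58) or 3 (0.62), with only these 2 groups fitted (0.66) and with a term for the counting set (0.51). Lpar6 lies inside Rb1 on the opposite strand, and the counting's strand setting is not given in the sources used here, so reads of the pair may mix.

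Rbl1, also called p107, binds mainly E2f4 and E2f5 and is itself expressed in cycling cells (ENSMUSG00000027641, chromosome 2, 156971629 to 157030248, minus strand). It was at 37.2, 38.3 and 30.3 CPM at E15.5, at 72.2, 63.3 and 45.4 CPM at P1, and at 51.1, 69.0 and 52.6 CPM at P7. It was at 28.5, 23.3 and 28.8 CPM at P14 and at 122, 76.9 and 67.6 CPM in MB. P14 lay below every other library, P1 and P7 overlapped, and P7 replicate 2 overlapped the lowest tumour. Rbl1 rose 1.71-fold to P1 (log2 0.78, SE 0.24, FDR 0.0143), not called without E15.5 replicate 3 (0.63) or P1 replicate 1 (0.63). It fell 2.14-fold from P7 to P14 (-1.10, SE 0.24, FDR 0.0138), not called without P7 replicate 2 (-0.95) or P14 replicate 2 (-1.01). The fall from P1 to P14 was 2.24-fold (-1.17, SE 0.24, FDR 0.0114), not called without P1 replicate 1 (-1.02) or 2 (-1.13) or P14 replicate 2 (-1.07) or 3 (-1.22). MB exceeded P14 by 3.31-fold (1.73, SE 0.24, FDR 3.30e-05), called in every alternative run over 1.43 to 1.89. Against P7 it was 1.54-fold higher (0.63, SE 0.23, FDR 0.0495). That call was lost without MB replicate 1 (0.33), without P7 replicate 1 (0.59) or 3 (0.56), without the filter on low counts (0.62), with only these 2 groups fitted (0.66), with a replicate block (0.59) and in the transcript table (0.62).

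**Figure D2:**
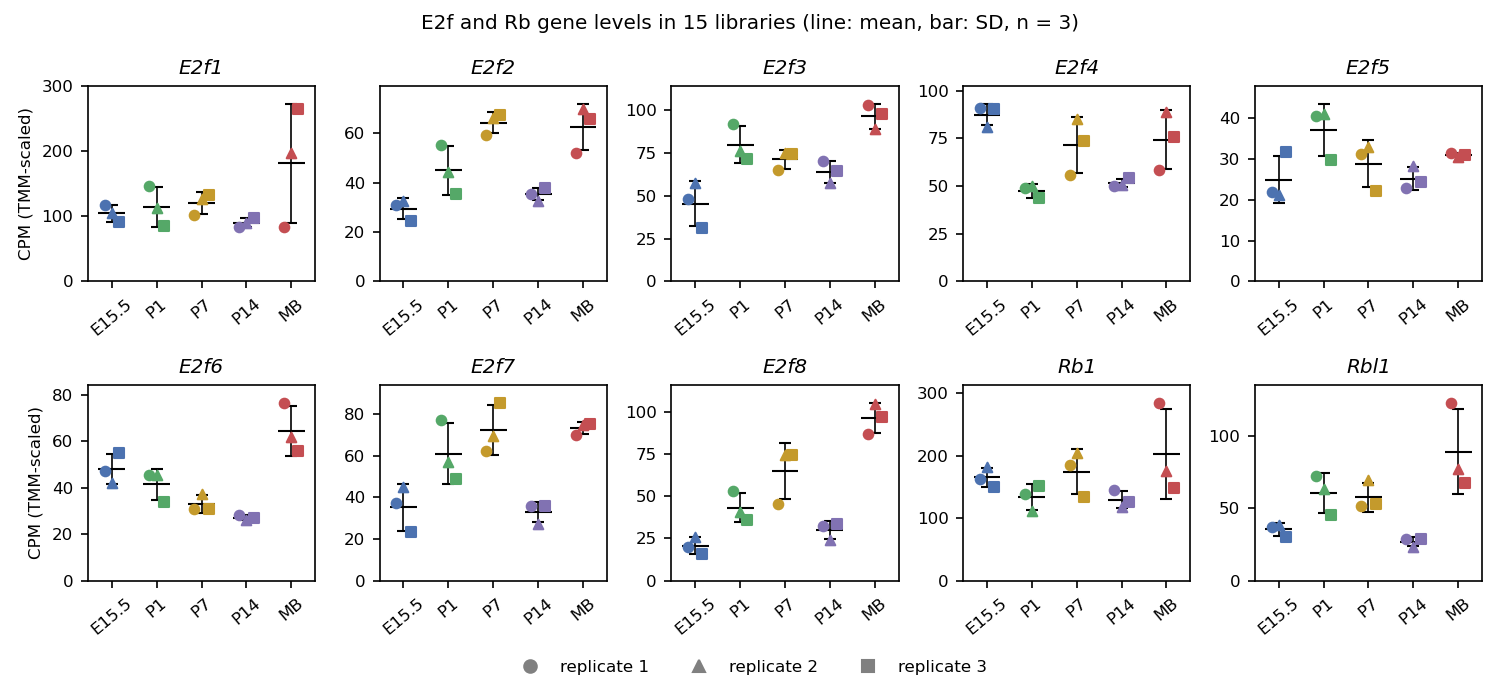
Level of each gene (TMM-scaled CPM, y axis from 0) in the 15 libraries by group, with 1 marker shape per replicate number, the group mean as a line and the SD as a bar (n = 3). E2f2, E2f7, E2f8 and Rbl1 are low at E15.5 and P14, and MB replicate 1 lies below the other tumours for E2f1 (82.9 against 196 and 264 CPM) and above them for Rb1 and Rbl1.

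Levels per kilobase of transcript (CPM per kb) allow the genes to be compared with each other. At E15.5 E2f4 made up 30.5% ± 2.01 (SD, n = 3) of the summed E2f level and E2f1 26.3% ± 2.45, and at P1 these shares were 15.8% ± 1.96 and 26.8% ± 2.61. E2f8 took 3.89% ± 0.957 at E15.5, 10.2% ± 1.55 at P7, 6.77% ± 1.02 at P14 and 11.9% ± 1.33 in MB. The E2f2 share was highest at P7 (8.04% ± 0.545), and that of E2f1 in MB ran from 16.9% in replicate 1 to 38.5% in replicate 3. The summed level of the atypical E2f7 and E2f8 relative to the activators E2f1 to E2f3 was 0.222 ± 0.0414 in the E15.5 group then 0.337 ± 0.0140 (P1) and 0.422 ± 0.0417 (P7), and was 0.262 ± 0.0360 for P14 and 0.428 ± 0.137 for MB (mean of per-kb ratios, SD, n = 3). Libraries of P7 lay above those of P1 and P14 without overlap in this ratio.

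Rb1 was the most abundant pocket protein gene per length in every library. Its ratio to Rbl1 was high in the E15.5 (4.90 ± 0.312) and P14 (5.04 ± 0.439) groups, lower in the P1 (2.44 ± 0.893) and P7 (3.17 ± 0.556) groups, and 2.36 ± 0.0717 for MB (SD, n = 3). In the 3 tumours it was 2.42, 2.39 and 2.28, although both genes were highest in MB replicate 1. Rbl2 encodes the third pocket protein (p130), which is known for binding E2f4 in resting cells. At P14 Rbl2 made up 23.3% ± 0.553 of the summed RNA level per kb of the pocket protein genes, and Rbl1 12.7% ± 0.910. At P1 Rbl2 made up 19.0% ± 2.24 and Rbl1 24.5% ± 5.69, so their order at these ages was opposite, but P1 replicate 3 had more Rbl2 than Rbl1 per kb (10.3 against 9.35 CPM per kb).

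**Figure D3:**
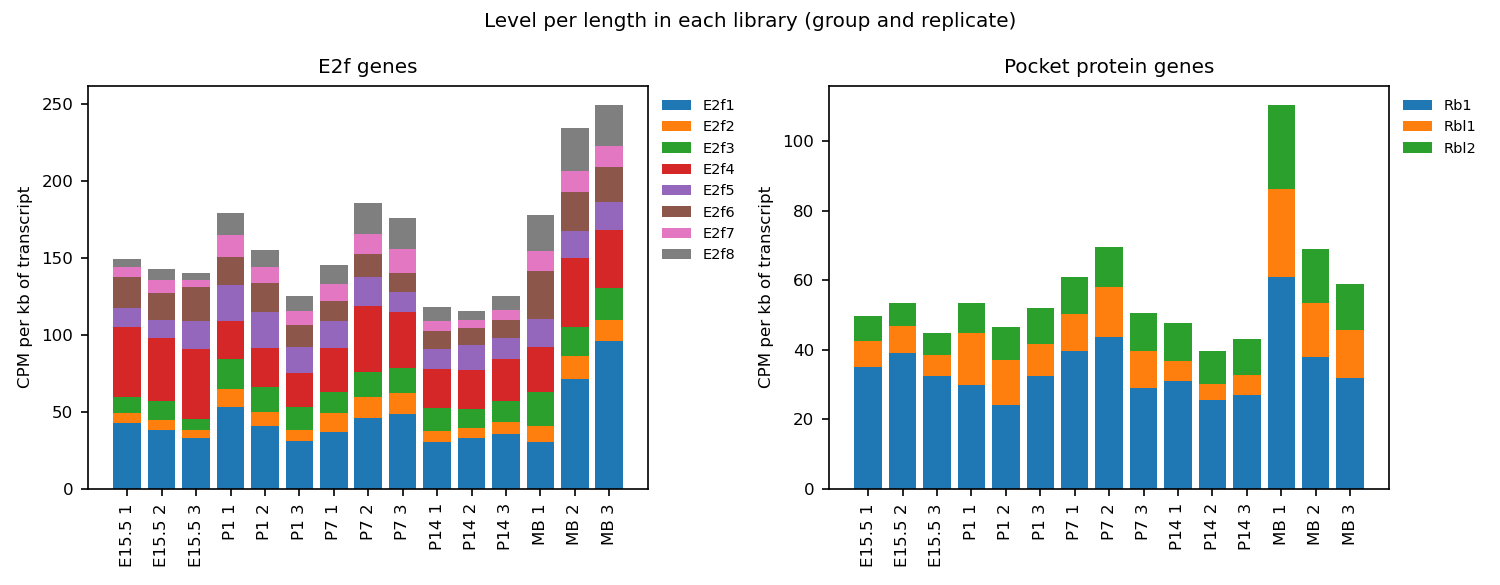
Level per kb of transcript (y axis, CPM per kb) of the E2f genes (left) and of Rb1, Rbl1 and Rbl2 (right), stacked for each of the 15 libraries (group and replicate on the x axis). The E2f1 segment of MB replicate 1 (30.1 CPM per kb) is smaller than in MB replicates 2 and 3 (71.3 and 95.9), while its pocket protein column is the tallest.

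Partners of these proteins were followed in a list of 10 genes. Tfdp1, the main DP partner, was 1.59-fold higher in MB than at P7 (log2 0.67, SE 0.17, FDR 0.00713), and Tfdp2 was 1.82-fold lower (-0.87, SE 0.23, FDR 0.00729). The library values of Tfdp2 were 179 CPM in MB replicate 1 against 92.2 and 97.6 CPM in the other tumours, and 200, 240.1 and 233 CPM at P7. Its change was -1.24 without MB replicate 1, and the call was lost for MB replicate 1 alone against P7 (-0.28) and with only these 2 groups fitted (-0.84). Rbl2 rose to P1 (0.53, FDR 0.0366), with 0.44 to 0.58 over all fits without 1 library. That call was lost when E15.5 replicate 1, 2 or 3 or P1 replicate 2 or 3 was left out. It was also lost with the transcript counts and with the start site counts. Models of Aktip overlap Rbl2 on the opposite strand, so reads of the pair may mix. Rbl2 was higher in MB than at P7 (0.67, FDR 0.0137) and P14 (0.81, FDR 0.00273). Without MB replicate 1 these changes were 0.37 (FDR 0.0512) and 0.51 (FDR 0.00746). Mybl2 and Foxm1, which activate mitotic genes with the MuvB core, were higher in MB than at P7 (1.03, FDR 0.00629 and 1.19, FDR 0.00187). In all, 5 of the 10 partners were higher in MB than at P7 and Tfdp2 was lower. Of all genes, 13.7% were higher and 20.7% lower. For MB replicate 1 alone against P7, Mybl2 (0.79), Foxm1 (0.95) and Tfdp1 (0.72) were not called. From P7 to P14, Mybl2 (-1.03), Foxm1 (-0.97), Lin9 (-0.99) and Lin54 (-0.91) fell, but each call was lost without any 1 of the P14 libraries, without P7 replicate 2 and with the counting set term. Over single left-out libraries these changes were -1.20 to -0.79, -1.14 to -0.86, -1.15 to -0.68 and -1.04 to -0.70.

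Genes of the G1/S transition known as E2f targets were a list of 30, of which 28 were tested. All 28 had negative fitted changes from P7 to P14, and 18 of them fell, where 4.51% of all genes did. The median was -0.92, against -0.005 over all genes. With single libraries left out the number that fell was 1 (without P14 replicate 2), 5 (without P7 replicate 2), 9 (without P14 replicate 1), 11 (without P14 replicate 3) or at most 15, and it was 1 with the counting set term. The lowest FDRs were in Mcm6 (-1.24), a subunit of the replicative helicase, Ezh2 (-1.02), Chaf1a (-1.15) and Mcm3 (-1.18). Of these, Mcm6 alone was called in all fits without 1 library, and Ezh2 (-0.99), Chaf1a (-1.10) and Mcm3 (-1.09) were lost without P14 replicate 2, Mcm3 also without P7 replicate 2 (-1.05). With the counting set term Mcm6 (-1.07, FDR 0.0790) was lost too. Between P1 and P14, 25 of 28 fell, where 5.31% of all genes did. The number was 4 to 8 without any 1 library other than P1 replicate 3, and 27 without that one. Mcm6 (-1.63, FDR 9.32e-04), Cdc6 (-1.35, FDR 0.00247) and Rrm2 (-1.15, FDR 0.00366) were called in all those fits. In MB, 19 of the 28 were higher than at P7, where 13.7% of all genes were, and 16 to 20 in fits without 1 library. The median was 0.82, against 0.02 over all genes. All 28 were higher than at P14, where 22.9% of all genes were, with a median of 1.73 against 0.01 over all genes. Mcm2 led in both MB contrasts (1.44, FDR 7.97e-05 and 2.54, FDR 3.70e-07).

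Mitotic genes that the DREAM complex of E2f4, Rbl1 or Rbl2 and MuvB represses were a list of 15, with 14 tested. From E15.5 to P1, 5 of the 14 rose and none fell, where 25.4% of all genes rose and 20.9% fell. Ccnb1 (1.30), Kif11 (1.31), Top2a (1.19) and Cenpe (1.41) had the lowest FDRs. From P7 to P14, 11 fell, where 4.51% of all genes did. None were called without P7 replicate 2 or P14 replicate 2. The count was 5 without P14 replicate 1, 6 without P14 replicate 3 and 1 with the counting set term. Between P1 and P14, 9 fell, where 5.31% of all genes did. Of these calls, 1 to 3 were left without P1 replicate 1 or 2 or any P14 library. In MB 4 of 14 were higher than at P7, where 13.7% of all genes were. Against P14, 14 of 14 were higher, where 22.9% of all genes were. The 4 genes higher than at P7 were Aurkb (0.82), Ccnb1 (0.70), Bub1b (0.53) and Plk1 (0.69). Their count was 1 to 5 in fits without 1 library (1 without P7 replicate 3, 2 without P7 replicate 1 or MB replicate 2). With the counting set term Aurkb, Bub1b and Plk1 were not called. Bub1b and Plk1 were also lost without the filter on low counts and with only MB and P7 fitted. For MB replicate 1 alone against P7 the change of Plk1 was 0.03.

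The kinases, cyclins and inhibitors of G1 that act on the pocket proteins were a list of 18, with 17 tested. In MB 10 were higher than at P7 and 1 lower, where 13.7% of all genes were higher and 20.7% lower. Cdk6, a D-cyclin kinase that phosphorylates Rb1, was at 370.2, 211 and 253 CPM in MB against 19.2, 23.0 and 40.9 CPM at P7 (log2 3.33, FDR 1.28e-05). Cdkn2a, the locus of the inhibitor p16 and of Arf, was at 18.4, 20.3 and 8.49 CPM in MB and at no more than 0.271 CPM in any normal library (FDR 1.04e-06 against P7). Cdkn1a (1.97, FDR 3.25e-05) and Cdkn2c (1.41, FDR 8.08e-05), which encode kinase inhibitors, were also higher than at P7. From P7 to P14, 5 fell and Cdkn2b rose (2.20), where 4.51% of all genes fell and 5.81% rose. The call of Cdkn2b was lost without P7 replicate 2 (1.94) or P14 replicate 2 (2.14). The number that changed was 1 to 5 in fits without 1 library (1 without P7 replicate 2 or P14 replicate 2, 2 without P14 replicate 1, 3 without P14 replicate 3) and 0 with the counting set term. Skp2, which marks kinase inhibitors for degradation, fell (-1.02, FDR 0.00837) in every fit without 1 library, and it also fell from P1 to P14 (-1.23, FDR 0.00135).

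E2f6 acts in a complex whose list held 12 genes, with 11 tested. In MB, 2 of the 11 were higher than at P7, where 13.7% of all genes were, Pcgf6 (0.62, FDR 0.00511) and Wdr5 (0.48, FDR 0.0363), the latter lost without any P7 library and without MB replicate 2 or 3 (0.44 to 0.55). Against P14, 6 of 11 were higher, and 3 without P14 replicate 1, where 22.9% of all genes were higher with all libraries. Of 6 germline genes known to be repressed by E2f6, only Stag3 and Smc1b passed the filter on low counts, and both were higher in MB, where E2f6 itself was highest. Stag3 was at 99.6, 16.4 and 18.9 CPM in MB and at 4.97 to 7.70 CPM at P7, so the tumour range did not overlap it. Smc1b was at 34.4, 1.86 and 2.16 CPM in MB and at 0.614 to 1.27 CPM at P7. Most of both came from MB replicate 1: against P7 the changes were 2.82 and 3.80, and 1.47 (FDR 2.58e-04) and 1.13 (FDR 0.0404) without it.

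**Figure D4:**
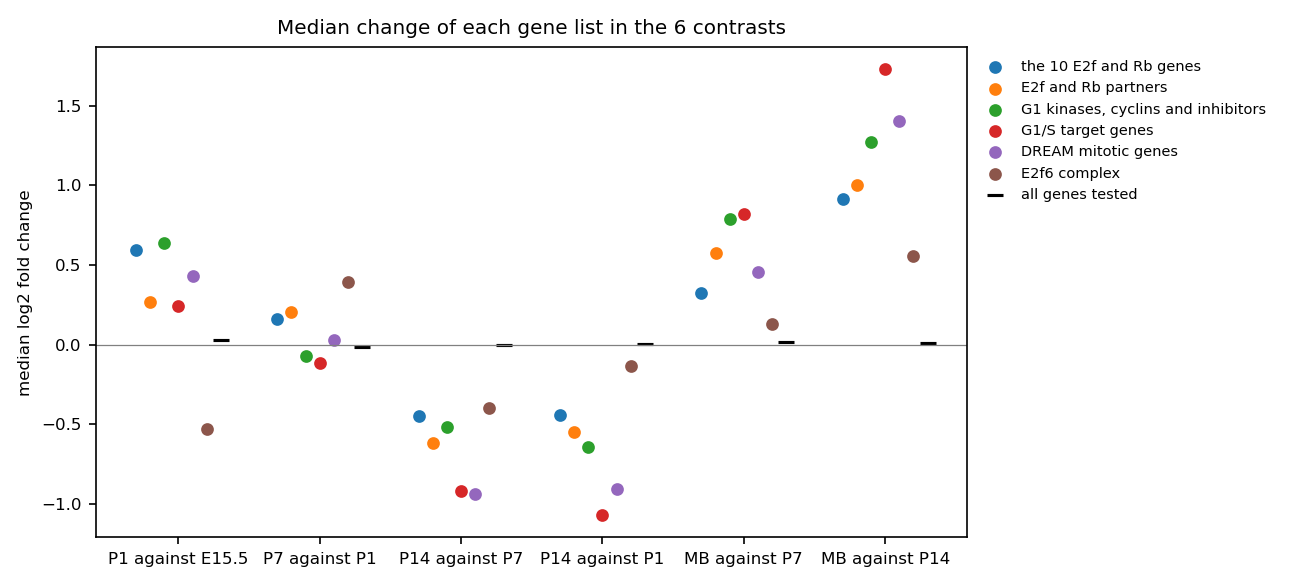
Median log2 fold change (y axis) of the 10 E2f and Rb genes, of 5 related lists and of all genes tested (black dashes) in the 6 contrasts (x axis). The medians of the 10 genes were 0.59 for P1 against E15.5, -0.45 for P14 against P7 and 0.91 for MB against P14, and those of the G1/S target genes were the farthest from 0 for P14 against P1 (-1.07) and MB against P14 (1.73).

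Within the family, E2f2, E2f7 and E2f8 varied together: over the 15 libraries Pearson's r of log2 CPM was 0.94 for E2f2 and E2f8, 0.92 for E2f2 and E2f7 and 0.90 for E2f7 and E2f8. Rbl1 went with E2f7 (0.86). E2f4 had r of 0.03 to 0.09 with these 4 genes over the 15 libraries, but over the 9 libraries of P1, P7 and P14 its r was 0.75 with E2f2, 0.76 with E2f8, 0.49 with E2f7 and 0.35 with Rbl1. These correlations describe 15 libraries in 5 groups that share age and tumour differences and are given without a test. Among 11566 other genes (mean level 5 CPM or more), the most similar to E2f8 were Nek2 (0.97) and Gli2 (0.96), and the same pair came first for E2f2 (Gli2 0.93 and Nek2 0.92). E2f7 was closest to Kif14 (0.95) and Kif24 (0.95), and Rbl1 to Topbp1 (0.99) and Palb2 (0.98). E2f6 was closest to Atoh1 (0.96), the defining transcription factor of GNPs, and Mical1 (0.96). Atoh1 was at 124, 138 and 124 CPM at E15.5, 65.4, 53.3 and 24.5 at P1, 23.6, 39.1 and 29.2 at P7, 11.7, 10.9 and 13.1 at P14, and 322, 282 and 236 in MB. The closest genes to 4 other E2f genes were Mlec (0.91) and Rmi2 (0.91) for E2f1, Wrn (0.97) and Mib1 (0.96) for E2f3, Men1 (0.97) and Ino80e (0.96) for E2f4, and Lsm6 (0.91) and Ppic (0.89) for E2f5. With Mki67, a marker of dividing cells, r was 0.92 for E2f7, 0.92 for E2f8, 0.90 for Rbl1, 0.89 for E2f2, 0.78 for E2f3, 0.60 for Rb1, 0.47 for E2f1, 0.43 for E2f6, 0.25 for E2f5 and 0.17 for E2f4. The order was different with Mcm2, a subunit of the replicative helicase: r was 0.90 for E2f6, 0.81 for Rbl1, 0.64 for E2f8, 0.60 for E2f7 and 0.54 for E2f2, and 0.34 to 0.61 for the other 5 genes.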

How the data were processed

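Poly(A) RNA of 15 libraries was sequenced from TruSeq v2 preparations on a HiSeq instrument, per the labels' protocols. The authors deposited raw read counts per Ensembl gene, per transcript and per start site model. Trimmomatic, TopHat, StringTie, HTSeq and the build mm9 are named, per the submitters' processing notes, without versions or roles. The strand setting is not given in the sources used here.

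The gene counts were tested in R 4.3.3 with edgeR 4.0.16 (filterByExpr with minimum count 10 and minimum total 15, TMM, 1 mean per group, quasi-likelihood test on 10 residual degrees of freedom). CPM were computed from TMM-scaled counts, log2 CPM with a prior count of 2. Symbols were matched by Ensembl ID (20358 of 21889). DESeq2 1.42.0, other scalings, filters and tables, a replicate block, the counting sets and leaving out each library were alternatives. On simulated counts for P14 against P7 (15027 genes), 92.9% of 99 genes changed by log2 1 and 100% of 101 changed by log2 2 were recovered, and 6.76% of calls were false. The simulation gave every gene the same dispersion, changed only genes above a count limit and held no differences in cell content. These shares are therefore not the recovery in the real contrast. Levels per kb used the transcript with the highest mean count.

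The 10 genes and the lists were chosen with earlier results of these data known. From each list, the genes named were up to 4 per contrast with the lowest FDR among those called, plus Tfdp1, Tfdp2 and Rbl2. For likeness, the 2 genes with the highest Pearson r were named, and those of Rb1 are not reported here. Where only 1 library remained in a group, its spread was taken from the others. Features of the proteins were not analysed here.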

Additional observations from a re-analysis of the deposited data

How the results depend on the processing

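The 25 calls kept their direction in all 358 alternative values, and 289 of these stayed called while 69 did not. E2f4 at P1 against E15.5, E2f6 in MB against P7, and E2f2, E2f6, E2f7, E2f8 and Rbl1 in MB against P14 were called in each. Counts that moved by over 1.5 times were P7 against P1 with DESeq2 (1, main 0), MB against P7 without the low-count filter, with the 2 groups alone, with the replicate block and in the transcript table (1 each, main 2), and P1 against E15.5 inside 1 counting set (2, main 7). With 1 library left out, the counts of called genes ran from 3 to 7 for P1 against E15.5 (3 without P1 replicate 1, 4 without E15.5 replicate 3), stayed 0 for P7 against P1, and ran from 0 to 4 for P14 against P7, 0 to 4 for P14 against P1, 1 to 2 for MB against P7 (1 without P7 replicate 1 or 3), 6 to 8 for MB against P14 and 7 to 8 over the 4 ages. The start site table held 6 of the 10 genes.

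Signs changed only in differences that were not called. With 1 library left out, E2f1 ran from -0.0870 to 0.31 (P1 against E15.5) and from -0.11 to 0.29 (P7 against P1), Rbl1 from -0.23 to 0.0834 (P7 against P1) and Rb1 from -0.16 to 0.0461 (P14 against P1). In MB against P7, E2f2 ran from -0.13 to 0.0800, E2f4 from -0.10 to 0.20, E2f5 from -0.0519 to 0.21, E2f7 from -0.0318 to 0.16 and Rb1 from -0.11 to 0.40. With the counting set term the values were E2f1 -0.40 and E2f6 0.0132 (P1 against E15.5), E2f3 0.0306 (P7 against P1), E2f6 0.0514 (P14 against P7), and E2f1 -0.00668, E2f4 -0.0683 and E2f7 -0.20 (MB against P7). Inside 1 set they were E2f1 -0.49 and E2f4 -0.25 (MB against P7). The cause was not tested.

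Replicate numbers did not pair the libraries: 7 of 30 same-number pairs had correlated deviations over 0.1 (-0.312 to 0.332), and 4 of 15 libraries correlated best with their own number. Depth of 12597472 counts or more gave each gene at least 254 counts in a library.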

Other observations

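Other lists moved between E15.5 and P1, when 6 of the 10 genes rose. Of the G1 kinases, cyclins and inhibitors, 9 of 17 rose and 2 fell, with a median log2 change of 0.64. Cdk6 (2.62, FDR 1.04e-04 by edgeR's quasi-likelihood test) and the inhibitor genes Cdkn2c (1.86, FDR 8.18e-06) and Cdkn2b (3.04, FDR 4.85e-04) rose. Counts of Cdkn2b were low, at 4, 1 and 9 in E15.5 replicates 1 to 3 and 24, 30 and 64 in those of P1. Cdkn1c, which encodes p57, fell (-2.36, FDR 1.97e-05). The E2f6 complex list went the other way, with 4 of 11 genes lower and 1 higher, Hdac2 (-0.87, FDR 0.00107), Rybp (-1.18, FDR 0.00122), Ring1 (-0.74, FDR 0.0133) and Max (-0.64, FDR 0.0262) at the lowest FDRs. The call of Max was lost without E15.5 replicate 2 or any P1 library (-0.69 to -0.63 over fits without 1 library). Of the 28 G1/S target genes 4 rose and 1 fell in this step, where 25.4% of all genes rose and 20.9% fell.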
